A study of Mus musculus with 12 samples.

Results

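In all, 39 genes of the type I interferon response, chosen by symbol as classical interferon-stimulated genes, were followed in mouse hematopoietic cells that express AML1-ETO and carry or lack Tet2. The array annotation gave 35 of these 39 genes a row of their own, and the row with the highest mean over all arrays was used where a gene had several, as for Ifi35. Of the 35 genes, 31 lay above the filter on low values and entered the fit over 16860 genes. The 4 below it were Mx1, Mx2, Rtp4 and Phf11d. Oas1a, Gbp2 and Ifi27l2a had only a row shared with another gene, and the annotation named no row for Ifi44, so these 4 genes have no value here.

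Type I interferons are secreted when cells sense foreign or misplaced nucleic acids. They bind the receptor formed by Ifnar1 and Ifnar2, and the kinases Jak1 and Tyk2 then activate Stat2, which joins Irf9 and switches on many genes through interferon-stimulated response elements. Products of these genes sense viral RNA, block translation, degrade RNA, tag proteins with Isg15 or brake the response again, and interferon signalling also acts on blood stem cells and progenitors.

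The cells came from Kit-enriched bone marrow of Tet2fl/fl;CreER mice and received AML1-ETO, the fusion protein of a common acute myeloid leukemia translocation, from a retrovirus that also encodes GFP. After 3 rounds of replating they grew in suspension with SCF and with IL-3 and IL-6 at 10 ng/ml each; the protocols list no added interferon. Cultures were given 200 nM 4-OHT, which activates CreER to excise Tet2, or ethanol as the control for 2 passages (4 days), and were then passaged every 2 days. The sort kept immature myeloid cells, positive for GFP and CD16/32 and negative for CD11b and Gr1, and 100 ng of total RNA per sample was put on 12 Affymetrix arrays. The 4 groups, with 3 arrays each, were Tet2fl/fl at passage 2 (p2), Tet2-/- at p2, Tet2fl/fl at passage 10 (p10) and Tet2-/- at p10. All groups share the floxed background, CreER and AML1-ETO, and the protocol gave 4-OHT to the excised cells alone, so that loss of Tet2 cannot be told apart from effects of 4-OHT and active Cre. The labels do not say that the replicates are separate transductions or animals, and the p-values then cover just the variation among these arrays, which may be technical.

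Many of these genes carry the response element next to their start sites, and 5 stretches are shown because Slfn5, Eif2ak2, Ifih1 and Irgm1 are described below and Isg15 is the textbook example. They are RefSeq sequences of build GRCm38.p6, 5′ to 3′ on the gene's strand, with matches to GAAANNGAAA, the core of the element, in capitals. The first 3 are the 250 bases before the start site, and the last 2 are 30 bases just after it.
Slfn5, chr11:82951852-82952101, plus strand: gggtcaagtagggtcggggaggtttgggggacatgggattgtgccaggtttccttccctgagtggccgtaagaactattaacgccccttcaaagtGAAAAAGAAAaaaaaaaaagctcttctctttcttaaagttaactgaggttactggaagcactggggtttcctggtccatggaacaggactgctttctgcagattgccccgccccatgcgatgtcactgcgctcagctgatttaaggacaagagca
Isg15, chr4:156200819-156201068, minus strand: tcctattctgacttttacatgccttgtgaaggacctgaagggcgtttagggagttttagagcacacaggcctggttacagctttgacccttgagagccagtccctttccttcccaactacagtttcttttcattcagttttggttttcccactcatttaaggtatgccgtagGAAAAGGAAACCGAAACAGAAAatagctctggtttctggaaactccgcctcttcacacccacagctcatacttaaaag
Irgm1, chr11:48871421-48871670, minus strand: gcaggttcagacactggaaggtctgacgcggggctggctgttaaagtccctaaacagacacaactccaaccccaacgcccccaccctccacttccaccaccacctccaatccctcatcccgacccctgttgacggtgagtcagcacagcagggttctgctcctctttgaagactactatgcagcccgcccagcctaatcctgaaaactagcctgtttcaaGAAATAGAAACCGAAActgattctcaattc
Eif2ak2, chr17:78882535-78882564, minus strand: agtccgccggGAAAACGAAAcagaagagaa
Ifih1, chr2:62646206-62646235, minus strand: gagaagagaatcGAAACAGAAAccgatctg

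Isg15 held 3 overlapping matches, which begin 78, 72 and 66 bases before the start site. Irgm1 held 2, at 30 and 24 bases before it, and Slfn5 held 1, at 155 bases before it. The matches of Eif2ak2 and Ifih1 began 19 and 33 bases after the start site. The search covered both strands (TTTCNNTTTC on the other) of windows of 300 bases, 250 before and 50 after the start. Of the 39 genes 30 had such a window in the table used, and 20 of them (66.7%) held a match, against 3.44% of 32851 promoters. Of the 20, 7 held 2 or more matches. The other motif searched, TTCNNNGAA, the palindromic site of STAT dimers, was in 7 of 30 (23.3%) and in 8.30% of all promoters. A match describes the letters of the window and does not show that a factor binds there.

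All values below are log2 array values, normalized across arrays by the authors, and differences are between group means on that scale, where a fold is the power of 2 of the difference. Levels of different genes are not compared, since each row has its own probes. The medians over all rows lay between 5.57 and 5.68 on the 12 arrays, and the correlation of arrays within a group, over all rows, was 0.984 to 0.991. The row of Tet2 itself had group means at p2 of 9.97 in Tet2fl/fl cells and 9.94 in Tet2-/- cells, and of 9.88 and 9.83 at p10, with SDs from 0.0509 to 0.162 (n = 3). It therefore does not show the excision, and where its probes lie relative to the floxed exon is not known here. Of the markers of the sorted cells, Ctsg lay between 12.92 and 13.24 and Fcgr3, the CD16 of the gate, between 10.57 and 11.13. Others ranged more widely: Mpo from 10.9 to 12.67, Elane from 8.27 to 12.03 and Prtn3 from 8.87 to 11.15. From p2 to p10 in Tet2-/- cells Elane fell by 1.69 ± 0.696 (adjusted p = 0.191, with the replicate number in the model 0.038). Its arrays of the 2 passages did not overlap. Of the 10 markers of the sorted cells 6 were lower and 4 higher there. Itgam, the CD11b that the sort selected against, was also measured, between 7.04 and 8.78, with a mean at percentile 79.7 of all rows. Ly6g, which the Gr1 antibody binds, lay between 4.77 and 7.61; at p10 its groups did not overlap, and it was higher in Tet2-/- cells by 1.32 ± 0.476 (adjusted p = 0.338; with the replicate number in the model 0.0887). The part of these Elane and Ly6g differences in the values below was not tested. Siglech, a marker of plasmacytoid dendritic cells, the main interferon producers of blood, lay between 4.97 and 5.71, and Ccr9 of the same list lay below the filter. The mean of the 6 measured markers of that list of 10 lay between 6.22 and 6.41 on all arrays, but single markers moved. From p2 to p10 in Tet2-/- cells 3 were higher and 3 lower. Tcf4 fell by 0.69 ± 0.297 (adjusted p = 0.209, with the replicate number in the model 0.0241), and its part in the values below was not tested.

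At p2, 15 of the 31 interferon response genes were higher and 16 lower in Tet2-/- cells, against 50.8% of all genes lower. At p10, 24 of 31 were lower, with a median difference of -0.18 against -0.01 over all genes tested, of which 52.6% were lower. That median was -0.09 without replicate 2 of Tet2fl/fl at p10, -0.11 without replicate 1 of Tet2-/- at p10 and -0.09 without replicate number 1. Slfn5 was the one gene that passed the test without the replicate number in the model, for the average of both passages, and it fell 1.97-fold. Zbp1 was higher in Tet2-/- cells in every pair of equal replicate number. It passed only with those numbers in the model as a fixed block, and not with them as a random effect. The other differences did not pass.

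Calls use limma's moderated test, adjusted by Benjamini and Hochberg over all 16860 genes, with 0.05 as the threshold. At p2, 0 of the 31 genes passed, as did 0.00593% of all genes; 5 of 31 had an unadjusted p under 0.05, against 9.95% of all genes. These 5 were Zbp1 and Gbp3, which were higher, and Slfn5, Irgm1 and Ifi35, which were lower. With the replicate block 1 of 31 passed, Zbp1, against 0.409% of all genes. At p10, 0 of 31 passed, against 0.225% of all genes, and 4 of 31 had an unadjusted p under 0.05, against 10.6%. Samd9l was the higher one of these 4, and Slfn5, Eif2ak2 and Xaf1 were lower. With the block 1 of 31, Slfn5, passed at p10, against 1.31% of all genes. For the average over both passages 1 of 31 passed, against 1.72% of all genes (1.06% lower), and with the block 2 of 31, Slfn5 and Zbp1, against 5.41%. The groups did not overlap at p2 for 3 higher genes (Gbp3, Gbp7 and Xaf1; 7.12% of all genes) and 3 lower ones (Slfn5, Irgm1 and Ifit1; 8.17%). At p10 they did not overlap for 0 higher genes (6.55% of all genes) and 4 lower ones (Slfn5, Irgm1, Xaf1 and Ddx58; 9.80%). The counts of called genes thus rest on 1 or 2 genes each. With the block an unadjusted p under 0.05 was found for 7 of 31 at p2 (13.4% of all genes), 7 at p10 (14.5%) and 10 for the average (20.4%). Within replicate numbers, all 3 differences were below 0 for 10 of 31 genes at p2 (18.7% of all genes) and for 14 at p10 (20.4%). All 3 were above 0 for 7 at p2 (16.3%) and for 2 at p10 (15.7%). In bulk samples fewer cells of a type and less RNA per cell cannot be told apart.

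**Figure D1:**
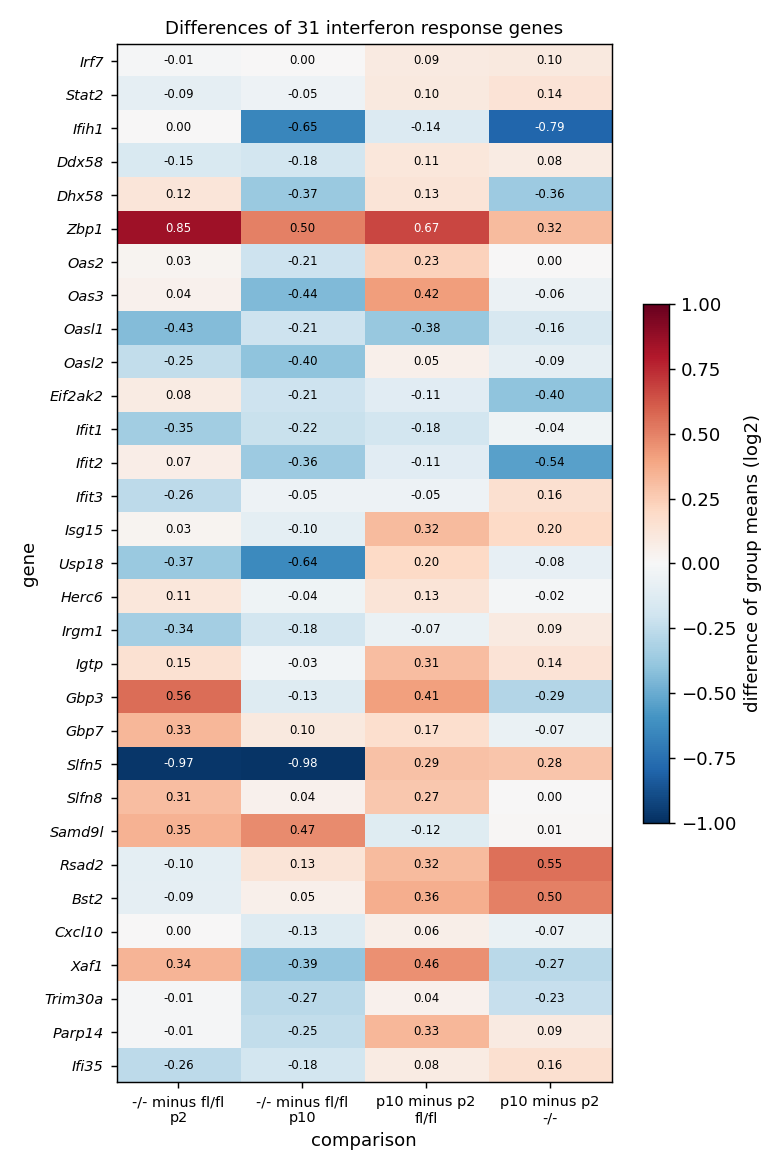
Differences of group means (log2, colour and printed value) for the 31 genes in the fit, by role from top to bottom, for Tet2-/- minus Tet2fl/fl at each passage and for p10 minus p2 in each genotype. Slfn5 has the lowest values in both genotype columns, -0.97 and -0.98, and Zbp1 has the highest, 0.85 and 0.50; the p10 genotype column is mostly blue, with 24 of 31 genes lower.

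Slfn5 belongs to the Schlafen family, interferon-induced proteins linked to growth control in blood cells. Its values at p2 were 7.18, 6.82 and 6.77 in Tet2fl/fl cells and 6.12, 6.18 and 5.57 in Tet2-/- cells (replicates 1, 2 and 3 here and below). At p10 they were 7.74, 6.94 and 6.96 in Tet2fl/fl cells and 6.71, 6.43 and 5.57 in Tet2-/- cells. Every Tet2-/- array lay below every Tet2fl/fl array, over both passages, as for 1.13% of all genes. The difference was -0.97 ± 0.297 (SE) at p2 (adjusted p = 0.307; with the replicate block 0.0596) and -0.98 ± 0.297 at p10 (adjusted p = 0.253; with the block 0.0350). Averaged over passages Slfn5 fell by 0.97 ± 0.210, with an adjusted p of 0.0437 without and 0.00431 with the block. Without the block the call is a narrow one: it was kept without replicate 1 of Tet2-/- at p10 and lost without any other single array, with adjusted p from 0.0292 to 0.0910 and differences from -1.09 to -0.81. With the block it was kept without each of the 12 arrays, with adjusted p of at most 0.0157. The size of the difference was nearly the same at both passages, and its change was -0.01 ± 0.420.

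Within the same families, Slfn8 and Samd9l differed the other way and did not pass. Samd9l, which acts as a tumour suppressor in myeloid cells, read 8.32, 7.98 and 8.19 in Tet2fl/fl and 8.51, 8.70 and 8.32 in Tet2-/- cells at p2. At p10 the values were 8.52, 7.70 and 7.92 in Tet2fl/fl and 8.68, 8.39 and 8.48 in Tet2-/- cells. Each Tet2-/- array was above the Tet2fl/fl array of its number, but the groups overlapped at both passages. The average difference was 0.41 ± 0.133 (adjusted p = 0.151); without replicate 1 of Tet2fl/fl at p10 it was 0.53 and passed (adjusted p = 0.0215). Slfn8 had group means at p2 of 6.90 in Tet2fl/fl cells and 7.21 in Tet2-/- cells, and of 7.17 and 7.21 at p10; Slfn8 and Slfn9 are near-identical copies, so its row is uncertain. Slfn2, which belongs to the family but not to the 31 genes, was singled out after its values were seen: it was higher in Tet2-/- cells by 0.31 ± 0.0807 on average (adjusted p = 0.0781), opposite in sign to Slfn5.

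Markers of cell types also differed by genotype. The mean of the 11 mast cell and basophil markers lay between 11.28 and 11.37 in Tet2fl/fl and between 10.81 and 11.04 in Tet2-/- cells at p2, and between 11.28 and 11.60 and between 10.44 and 11.08 at p10. Of these markers 8 were lower in Tet2-/- cells on average, 1 of them past the threshold without the block, as for 1.72% of all genes, and 5 with it, against 5.41%. The 1 was Tpsab1, which fell by 1.43 ± 0.223 (adjusted p = 0.0124). Of 10 markers of the sorted immature cells, Kit, the stem cell factor receptor, fell by 0.82 ± 0.148 on average (adjusted p = 0.0220), and with the block Gfi1 passed too. The mean of these 10 lay between 11.16 and 11.54 in Tet2fl/fl and between 11.01 and 11.46 in Tet2-/- cells at p2, and between 10.48 and 11.59 and between 10.76 and 11.11 at p10. Of 7 measured conventional dendritic cell markers, 6 were higher in Tet2-/- cells on average, 0 passed without the block and 2 with it, H2-Ab1 (1.02 ± 0.502, adjusted p = 0.351; with the block 0.0427) and Flt3. Their mean lay between 5.45 and 5.92 in Tet2fl/fl and between 5.87 and 6.11 in Tet2-/- cells at p2, and between 5.65 and 6.0 and between 5.83 and 6.19 at p10. The part of these marker differences in the values of Slfn5, Zbp1 or the other interferon response genes was not tested.

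Zbp1 senses nucleic acids in the Z form and can start necroptosis, an inflammatory cell death. At p2 it read 6.64, 7.36 and 6.72 in Tet2fl/fl cells and 7.57, 8.36 and 7.35 in Tet2-/- cells. At p10 the values were 7.13, 8.03 and 7.58 in Tet2fl/fl cells and 7.53, 8.65 and 8.06 in Tet2-/- cells. Replicate 2 was the highest array in all 4 groups, and because of that spread the groups overlapped at both passages, although each Tet2-/- array was above its Tet2fl/fl partner. The partner differences were 0.93, 1.00 and 0.64 at p2 and 0.40, 0.62 and 0.48 at p10. At p2 the difference was 0.85 ± 0.342 (adjusted p = 0.441; with the block 0.0418), and on average over passages it was 0.68 ± 0.242 (adjusted p = 0.193; with the block 0.00630). With the block the average passed without each of the 12 arrays (adjusted p at most 0.0282). At p2 it passed with the block only without replicate 1 or 3 of Tet2fl/fl at p10 or replicate 1 of Tet2-/- at p10, with adjusted p up to 0.226 when another array was left out.

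**Figure D2:**
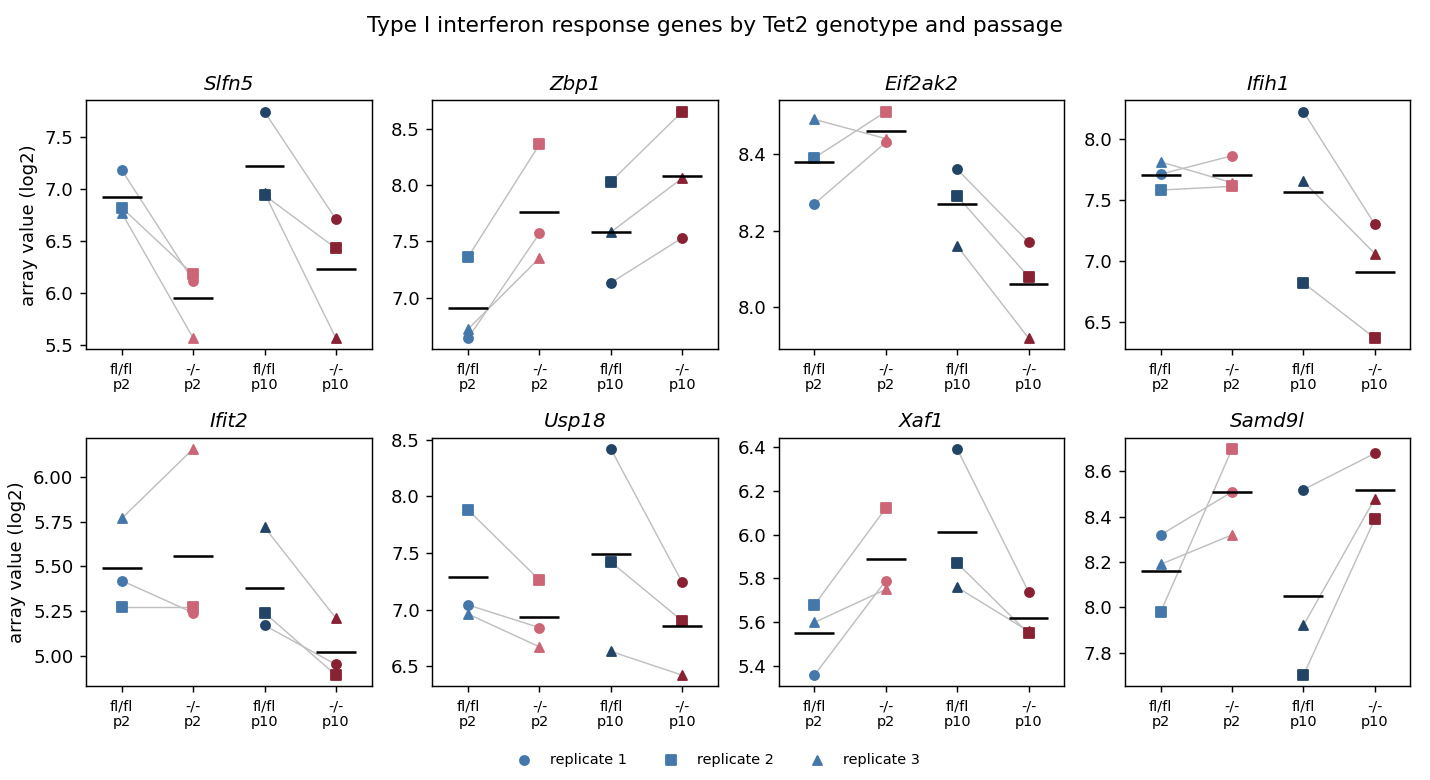
Log2 array values of 8 interferon response genes in the 4 groups, with 1 point per array, a marker shape per replicate number, grey lines between Tet2fl/fl and Tet2-/- arrays of equal number and passage, and a black bar at each group mean (n = 3); each panel has its own vertical range. Slfn5 is lower and Zbp1 higher in Tet2-/- cells along all 6 grey lines, while Ifih1 is lower along the lines at p10 and its lines cross at p2.

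The RNA sensors of the RIG-I family showed no common difference at p2 and were all lower in Tet2-/- cells at p10, by values that did not pass. Ifih1, the sensor MDA5 for long double-stranded RNA, read 7.71, 7.58 and 7.81 in Tet2fl/fl and 7.86, 7.61 and 7.64 in Tet2-/- cells at p2. At p10 it read 8.22, 6.82 and 7.65 in Tet2fl/fl and 7.30, 6.37 and 7.06 in Tet2-/- cells. The p10 groups overlapped through replicate 2 of Tet2fl/fl, the low array of its group. The difference was 0.00 at p2 and -0.65 ± 0.304 at p10 (adjusted p = 0.481). Dhx58, the regulator LGP2 of these sensors, differed by 0.12 at p2 and -0.37 at p10 (adjusted p = 0.479), and Ddx58, RIG-I itself, had means of 9.40 and 9.26 at p2 and of 9.52 and 9.34 at p10, Tet2fl/fl cells first.

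Eif2ak2 encodes PKR, the kinase that halts translation when it binds double-stranded RNA. It read 8.27, 8.39 and 8.49 in Tet2fl/fl and 8.43, 8.51 and 8.44 in Tet2-/- cells at p2, and the groups overlapped. At p10 it read 8.36, 8.29 and 8.16 in Tet2fl/fl and 8.17, 8.08 and 7.92 in Tet2-/- cells, and replicate 3 of Tet2fl/fl lay just under the highest Tet2-/- array. The p10 difference was -0.21 ± 0.0918 and did not pass (unadjusted p = 0.0414, adjusted p = 0.443).

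None of the measured genes of the OAS, IFIT and Mx families, which make the activator of RNase L, bind foreign RNA and trap viral nucleocapsids, passed for genotype with or without the block. The 4 OAS genes in the fit differed by -0.43 to 0.04 at p2 and by -0.44 to -0.21 at p10. Oas3 read 7.25, 6.56 and 6.30 in Tet2fl/fl and 6.23, 6.41 and 6.14 in Tet2-/- cells at p10, where replicate 1 of Tet2fl/fl stood highest and the other arrays overlapped. At p2 its values were 6.25, 6.71 and 5.89 in Tet2fl/fl and 6.17, 6.67 and 6.13 in Tet2-/- cells. The other means, with Tet2fl/fl cells first, were 5.15 and 5.18 at p2 and 5.38 and 5.18 at p10 for Oas2, 6.23 and 5.80 and then 5.86 and 5.65 for Oasl1, and 5.13 and 4.88 and then 5.19 and 4.79 for Oasl2. Ifit1 had means of 5.90 and 5.55 at p2, with no overlap of the groups, and of 5.72 and 5.51 at p10. For Ifit3, which shares near-identical sequence with Ifit3b, they were 6.73 and 6.48 at p2 and 6.68 and 6.64 at p10. Mx1, at 3.82 to 4.48 over all arrays, and Mx2, at 3.80 to 5.01, had means below the filter and were not tested.

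Usp18 removes Isg15 from proteins and also blocks the interferon receptor, so it brakes the response that induces it. At p2 it read 7.04, 7.88 and 6.96 in Tet2fl/fl and 6.84, 7.26 and 6.67 in Tet2-/- cells. At p10 it read 8.42, 7.42 and 6.63 in Tet2fl/fl and 7.24, 6.90 and 6.42 in Tet2-/- cells. Each Tet2-/- array was below its partner, but the groups overlapped, and the Tet2fl/fl p10 arrays alone spanned more than the genotype difference of -0.64 ± 0.400 (adjusted p = 0.643). Isg15 itself, the ubiquitin-like tag, had means of 4.62 and 4.64 at p2 and of 4.94 and 4.84 at p10. Herc6, the mouse ligase for Isg15, had means of 7.96 and 8.07 at p2 and of 8.09 and 8.05 at p10.

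The interferon-inducible GTPases, which attack the vacuoles of intracellular pathogens, differed in both directions. Irgm1, a regulator of the family, read 6.95, 7.25 and 7.22 in Tet2fl/fl and 6.84, 6.62 and 6.93 in Tet2-/- cells at p2, and 7.15, 7.04 and 7.02 against 7.01, 6.97 and 6.69 at p10. Its groups did not overlap at either passage; Irgm1 and Slfn5 were the genes of the 31 that stood apart in the same direction at both, as did 3.91% of all genes. The average difference of Irgm1 was -0.26 ± 0.0836 (adjusted p = 0.150). Gbp3, a guanylate-binding protein, read 5.0, 5.42 and 5.05 in Tet2fl/fl and 5.69, 5.83 and 5.63 in Tet2-/- cells at p2, without overlap. At p10 the groups overlapped, with 5.69, 5.85 and 5.14 in Tet2fl/fl and 5.37, 5.73 and 5.18 in Tet2-/- cells. The p2 difference was 0.56 ± 0.191 (adjusted p = 0.368) and the p10 difference -0.13. Gbp7 had means of 9.78 and 10.12 at p2 and of 9.95 and 10.05 at p10, and Igtp of 7.26 and 7.41 at p2 and of 7.57 and 7.54 at p10.

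Xaf1, a pro-apoptotic partner of the inhibitor Xiap, stood apart in opposite directions at the 2 passages, as did 0.154% of all genes. At p2 it read 5.36, 5.68 and 5.60 in Tet2fl/fl and 5.79, 6.12 and 5.75 in Tet2-/- cells, and at p10 6.39, 5.87 and 5.76 against 5.74, 5.55 and 5.56. All Tet2-/- arrays were the higher ones at p2 and the lower ones at p10. The differences were 0.34 ± 0.163 (adjusted p = 0.520) and -0.39 ± 0.163 (adjusted p = 0.417). Ifi35, an interferon-induced leucine zipper protein, read 9.36, 9.66 and 9.73 in Tet2fl/fl and 9.18, 9.29 and 9.50 in Tet2-/- cells at p2, and 9.52, 9.76 and 9.72 against 9.42, 9.57 and 9.45 at p10. Each Tet2-/- array was below its partner, the groups overlapped, and the average difference was -0.22 ± 0.0835 (adjusted p = 0.212). Its size depended on the processing. It lay between -0.28 and -0.19 with single arrays left out and between -0.28 and -0.11 over all 36 alternatives. The difference passed in 0 of them. Ifi35 had 2 rows of its own. The alternatives included the mean of both, and the second row is not given on its own.

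None of the remaining genes in the fit passed for genotype with or without the block. Irf7, the factor that amplifies interferon production, had means, again with Tet2fl/fl cells first, of 6.16 and 6.15 at p2 and of 6.25 and 6.25 at p10. Stat2, the partner of Irf9, had 8.63 and 8.54 at p2 and 8.73 and 8.68 at p10. The chemokine Cxcl10 had 5.62 and 5.62 at p2 and 5.68 and 5.55 at p10. Bst2, also called tetherin for holding virions on the cell surface, had 7.79 and 7.70 at p2 and 8.15 and 8.20 at p10. Trim30a, whose family has close copies, had 6.71 and 6.70 and then 6.75 and 6.48, and Parp14, an ADP-ribosyltransferase, had 7.66 and 7.64 and then 7.98 and 7.73. Rtp4 and Phf11d, with all arrays between 4.11 and 4.79 and between 3.35 and 4.11, were below the filter.

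Few of the genes passed the test between p2 and p10 in either genotype. In Tet2fl/fl cells 23 of 31 were higher and 8 lower at p10, against 42.1% of all genes lower. Of the 31 genes 0 passed, as did 0.00% of all genes, and with the block 0, against 0.0415%. Their median difference was 0.13, against 0.03 over all genes. That median was 0.04 without replicate 1 and 0.24 without replicate 3 of Tet2fl/fl at p10, and 0.02 without replicate number 1. The 10 markers of mature myeloid cells, which the sort was to remove, were all lower at p10 in Tet2fl/fl cells, with a median difference of -0.55, and 0 passed; their mean on an array lay between 7.52 and 8.83 at p2 and between 6.45 and 7.96 at p10. In Tet2-/- cells 15 of the interferon response genes were higher and 16 lower, against 42.4% of all genes lower. The mean of the mature myeloid markers lay there between 7.74 and 8.37 at p2 and between 7.0 and 7.48 at p10. Of the 10, 6 were lower and 4 higher at p10, among the latter Ly6g, by 1.15 ± 0.476 (adjusted p = 0.193). With the block 4 of the 10 passed, all lower, against 4.68% of all genes. The part of these markers in the passage differences was not tested. In Tet2-/- cells 1 of 31 passed, Eif2ak2, against 2.98% of all genes (1.73% lower), and it fell. With the block 3 of 31 passed, Eif2ak2, Ifih1 and Ifit2, against 7.94% (4.68% lower), and all 3 were lower at p10. An unadjusted p under 0.05 was found for 4 of 31 in Tet2fl/fl cells (Isg15, Xaf1, Parp14 and Igtp, higher; 10.2% of all genes) and for 4 in Tet2-/- cells (Bst2, higher, and the same Eif2ak2, Ifih1 and Ifit2; 21.6%). With the block these counts were 7 in Tet2fl/fl cells (14.0% of all genes) and 7 in Tet2-/- cells (26.0%).

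The fall of Eif2ak2 in Tet2-/- cells took it from a mean of 8.46 ± 0.0444 (SD, n = 3) at p2 to 8.06 ± 0.129 at p10, and the arrays of both passages did not overlap. It fell by 0.40 ± 0.0918 (SE; adjusted p = 0.0437), and in Tet2fl/fl cells the difference was -0.11 ± 0.0918 (adjusted p = 0.668). The call was lost without replicate 2 of Tet2fl/fl at p2, replicate 2 of Tet2fl/fl at p10 or any 1 of the 6 Tet2-/- arrays, with adjusted p up to 0.125. It was also lost when array medians were made equal (0.0667). Ifih1 had 3 Tet2-/- arrays at p10 that all lay below the p2 arrays, with a difference of -0.79 ± 0.304 (adjusted p = 0.162; with the block 0.0464). Ifit2, which binds the translation factor eIF3, read 5.24, 5.27 and 6.16 at p2 and 4.95, 4.89 and 5.21 at p10 in Tet2-/- cells, without overlap. Its difference was -0.54 ± 0.240 (adjusted p = 0.222; with the block 0.0273) and -0.24 without replicate 3 of Tet2-/- at p2, and in Tet2fl/fl cells it read 5.42, 5.27 and 5.77 at p2 and 5.17, 5.24 and 5.72 at p10. With the block and 1 array left out, Ifih1 passed in 4 of 12 cases and Ifit2 in 7. Of the 31 genes 5 were lower at p10 without overlap in Tet2-/- cells (Eif2ak2, Ifih1, Ifit2, Dhx58 and Xaf1), against 12.9% of all genes, and 0 higher, against 15.4%.

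Rsad2, the antiviral enzyme viperin, read 5.12, 5.56 and 5.02 at p2 and 5.54, 6.23 and 5.57 at p10 in Tet2-/- cells, where each array was higher at p10 but the groups overlapped. In Tet2fl/fl cells it read 5.20, 5.71 and 5.09 at p2 and 6.0, 5.83 and 5.12 at p10. Its difference in Tet2-/- cells was 0.55 ± 0.264 (adjusted p = 0.258; with the block 0.0644). Isg15 in Tet2fl/fl cells read 4.58, 4.66 and 4.62 at p2 and 4.95, 4.99 and 4.88 at p10. These groups did not overlap, and the difference of 0.32 ± 0.0915 had an unadjusted p of 0.00491 and an adjusted p of 0.401. Xaf1 and Parp14 also stood apart there, so that 3 of 31 genes were higher without overlap, against 7.99% of all genes. In Tet2fl/fl cells Zbp1 differed by 0.67 ± 0.342 between the passages (adjusted p = 0.524; with the block 0.0830).

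The change of the genotype difference from p2 to p10 was tested as an interaction. Of the 31 genes 0 passed, as did 0.00% of all genes, and with the block 0 of 31, against 0.00593%. An unadjusted p under 0.05 was found for 3 of 31, against 3.22% of all genes. These were Xaf1 with -0.74 ± 0.230, Gbp3 with -0.70 ± 0.271 and Eif2ak2 with -0.29 ± 0.130, with limma p-values of 0.00827, 0.0252 and 0.0486 and an adjusted p of 0.999 each. The passage at which a gene passed is therefore not shown to matter for any of them.

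Arrays of a group also differed in the levels of these genes. In Tet2fl/fl cells at p10, replicate 1 was the highest array for 19 of 31 genes, against 31.2% of all genes, and replicate 3 the lowest for 20, against 32.2%. Replicate 1 there had a median over the 31 genes of 7.25, and replicates 2 and 3 had 6.93 and 6.80. In the other groups the medians ranged from 6.46 to 6.82. Replicate 2 was the highest array for 19 of 31 genes in Tet2fl/fl cells at p2 (34.1% of all genes) and for 19 in Tet2-/- cells at p2 (33.7%). Usp18, Oas3, Ifih1 and Xaf1 all had their highest value of the series in replicate 1 of Tet2fl/fl at p10. Without that array the Usp18 difference at p10 was -0.18 and that of Ifih1 was -0.33, and neither passed. Without replicate 3 of Tet2fl/fl at p10 the Usp18 difference was -1.07, and without replicate 2 that of Ifih1 was -1.02, and neither passed.

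**Figure D3:**
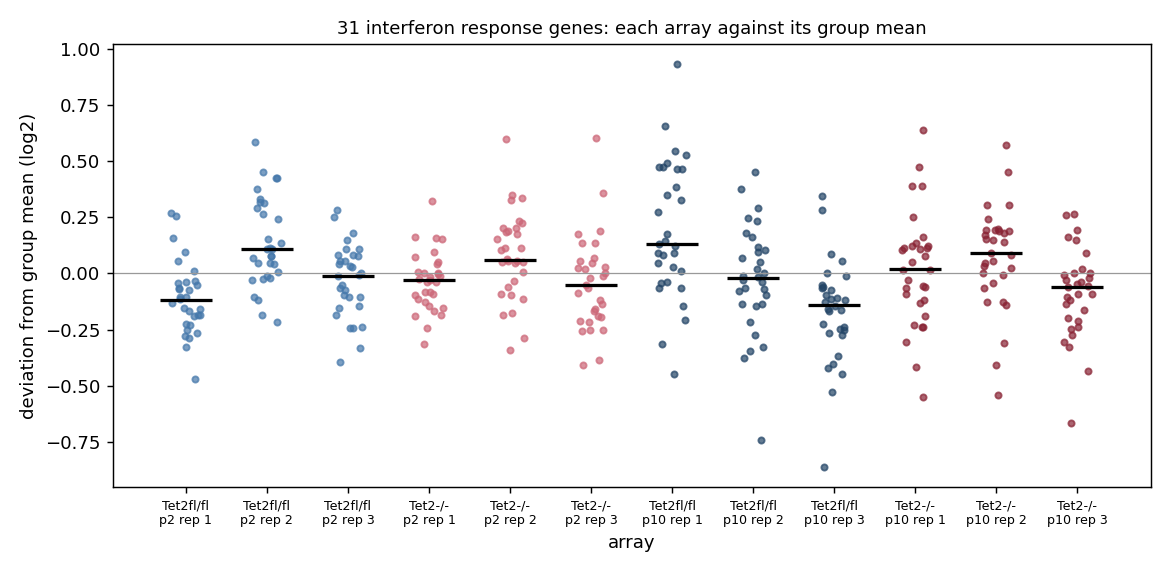
Deviation of each of the 31 genes from its own group mean (log2) on each of the 12 arrays; points are genes, spread sideways for visibility, and black bars are medians over the 31 genes. The median is highest, 0.13, on replicate 1 and lowest, -0.14, on replicate 3 of Tet2fl/fl at p10.

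The rest of the pathway was read from 7 lists, from ligands to antigen processing. They held 95 genes in the fit. Of these 0 passed for genotype at p2 and p10 and 1 for the average (Parp12, lower), or 1.05% against 1.72% of all genes. Between p2 and p10 in Tet2-/- cells 3 passed (Ticam1, Ube2l6 and Tapbp, higher), or 3.16% against 2.98%. With the block 0 passed at p2, 4 at p10 (4.21% against 1.31% of all genes), 5 for the average (5.26% against 5.41%) and 4 between passages in Tet2-/- cells (4.21% against 7.94%). Of 16 type I interferon genes 5 were above the filter, and 0 passed; the 2 nearest to passing, Ifna6 and Ifna14, lay between 4.61 and 5.12 and between 5.97 and 6.41 over all arrays. The receptor chains and kinases had near-equal levels. Ifnar1 differed by -0.10 at p2 and -0.05 at p10, Ifnar2 by -0.05 and -0.00, Jak1 by -0.09 and -0.06 and Tyk2 by -0.08 and -0.09. Every Tet2-/- array of Jak1 still lay below every Tet2fl/fl array, as for 1.13% of all genes. Its average difference was -0.07 ± 0.045 (adjusted p = 0.482). Of the 10 measured genes of the receptor list 0 passed for genotype, and with the block 1, Jak2, was higher on average by 0.28 ± 0.0876 (adjusted p = 0.131; with the block 0.0377; kept in 1 of 12 cases when an array was also left out). The 5 measured interferon regulatory factors held none that passed; Irf8, which directs monocyte and dendritic cell fate, had an average difference of 0.46 ± 0.134 (adjusted p = 0.109) and Irf1 of 0.16.

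Parp12, an antiviral ADP-ribosyltransferase, was the 1 gene called for genotype without the block among 37 measured of 55 other interferon-induced genes. It read 7.36, 8.08 and 7.49 in Tet2fl/fl and 6.96, 7.23 and 6.93 in Tet2-/- cells at p2, and 7.99, 8.16 and 7.50 against 7.25, 7.16 and 6.64 at p10. As for Slfn5, every Tet2-/- array lay below every Tet2fl/fl array. It fell by 0.73 ± 0.159 on average (adjusted p = 0.0444; with the block 0.00639). Without the block the call was kept without replicate 1 of Tet2fl/fl at p2, replicate 3 of Tet2fl/fl at p10 or replicate 1 of Tet2-/- at p10 and lost without any other single array (adjusted p up to 0.111); with the block it was kept without each of the 12. At p10 its difference was -0.86 ± 0.224 (adjusted p = 0.166; with the block 0.0289, and past the threshold in 7 of 12 cases with an array left out). Slfn4, another Schlafen gene, read 5.93, 5.71 and 7.35 in Tet2fl/fl and 5.24, 4.81 and 5.95 in Tet2-/- cells at p10. Replicate 3 was the highest in both groups, which overlapped. The difference was -1.0 ± 0.508 (adjusted p = 0.532; with the block 0.0371), and -0.49 without replicate 3 of Tet2fl/fl. Its average difference was -0.65 ± 0.359 (adjusted p = 0.412; with the block 0.0213, kept in 7 of 12 cases with an array left out). Isg20, an exonuclease that degrades viral RNA, read 7.97, 8.43 and 8.06 in Tet2fl/fl and 8.52, 8.74 and 8.66 in Tet2-/- cells at p10, without overlap. There it differed by 0.48 ± 0.145 (adjusted p = 0.248; with the block 0.0403). At p2 it read 7.90, 8.21 and 7.87 against 8.31, 8.45 and 8.06, with overlap. Averaged over passages it was higher in Tet2-/- cells by 0.38 ± 0.102 (adjusted p = 0.0835; with the block 0.0129), and with the block this passed without each of the 12 arrays (adjusted p at most 0.0416). Between passages in Tet2-/- cells it differed by 0.37 ± 0.145 (adjusted p = 0.173; with the block 0.0424, kept in 2 of 12 cases). Among 13 measured brakes on the pathway, Nlrx1, which restrains the adaptor Mavs, read 8.09, 7.88 and 8.02 in Tet2fl/fl and 7.62, 7.64 and 7.62 in Tet2-/- cells at p10, without overlap. Its difference was -0.37 ± 0.0794 (adjusted p = 0.0927; with the block 0.0497), and with the block it did not pass without any 1 of the 12 arrays. Its average difference was -0.25 ± 0.0562 (adjusted p = 0.0536; with the block 0.0291, kept in 2 of 12 cases). Isg20 at p10 passed with the block in 1 of those 12 cases, Slfn4 in 6.

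The 3 pathway genes that rose from p2 to p10 in Tet2-/- cells have separate roles. Ticam1, the adaptor TRIF of endosomal sensing, read 8.64, 8.62 and 8.61 at p2 and 9.09, 9.02 and 8.95 at p10. Ube2l6, the conjugating enzyme for Isg15, read 6.99, 7.01 and 6.80 at p2 and 7.75, 7.46 and 7.47 at p10. Tapbp, the chaperone tapasin that loads peptides on MHC class I, read 10.58, 10.59 and 10.55 at p2 and 10.81, 10.91 and 10.93 at p10. None of the 3 overlapped between passages, and they rose by 0.40 ± 0.0672 (adjusted p = 0.0260), 0.63 ± 0.127 (adjusted p = 0.0356) and 0.31 ± 0.0718 (adjusted p = 0.0437). Without 1 array the calls of Ticam1 and Ube2l6 were lost in 5 of 12 cases each, for replicates 1 and 3 at p2 and all 3 at p10 of Tet2-/- cells (adjusted p up to 0.0919 and 0.117), and that of Tapbp was kept in 1 case, without replicate 3 of Tet2fl/fl at p2. In Tet2fl/fl cells the same differences were 0.05, -0.08 and 0.13, and the interactions had an adjusted p of 0.999.

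**Figure D4:**
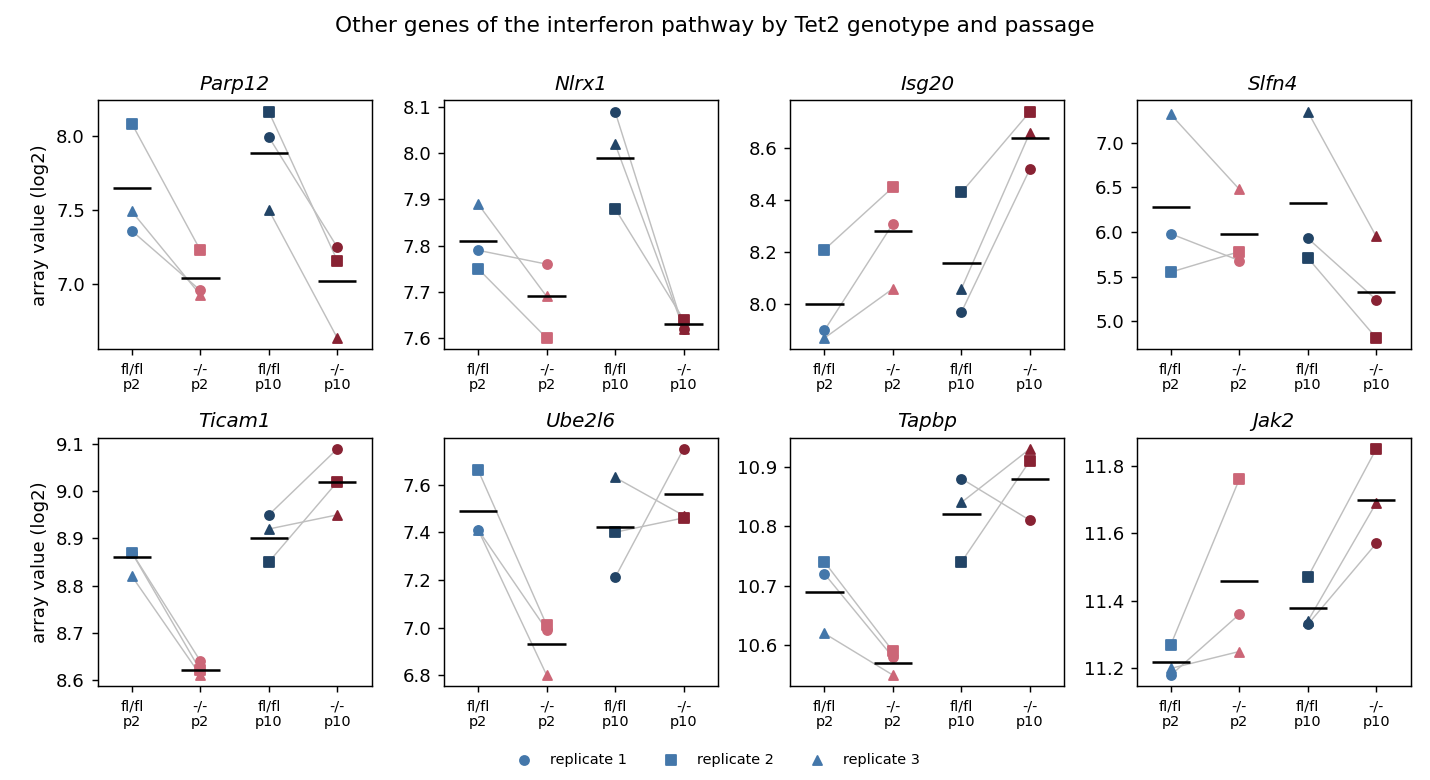
Log2 array values of 8 pathway genes outside the 31, drawn as points per array with a shape per replicate number, grey lines between arrays of equal number and passage, and black bars at group means (n = 3); vertical ranges differ between panels. Parp12 and Nlrx1 are lower along every grey line, and the group means of Ticam1 and Ube2l6 are lower in Tet2-/- cells at p2 and not at p10.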

How the data were processed

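RNA of 12 samples was measured on Affymetrix GeneChip Mouse Gene ST arrays. The deposited log2 values were made by the authors with RMA in Affymetrix Power Tools, per the submitters' processing notes; no version is stated, and raw intensities were not used. RMA scales all arrays to a common distribution, so a shift shared by most genes would not be seen, and it compresses differences of dim rows. Of 41345 rows, 23521 had 1 symbol in the platform annotation, 1814 several and 16010 none; 23328 were matched to current RefSeq symbols by gene ID. Rows with a mean under the 30th percentile (log2 4.70) were left out, and the highest row of a gene was kept, which left 16860 genes.

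A mean per group was fitted with limma 3.58.1 (R 4.3.3) over 12 arrays, with 8 residual and 3.33 prior degrees of freedom. Tests were two-sided, adjusted by Benjamini and Hochberg within each contrast (threshold 0.05), and the code was tested on simulated data. Replicate numbers come from the titles. Deviations from group means correlated at 0.201 to 0.517 in the 18 pairs of arrays of equal number and at -0.369 to 0.0532 in the 36 others. Deviations within a group sum to 0, so the low values of the others follow in part from the high ones. Arrays of equal number, called partners here, thus deviated alike, but the labels state no pairing, and it was read from these same data. The fit with the number as a fixed block is given where it changes a call. As a random effect the number had a correlation of 0.123.

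The genes followed, the lists and the rules were chosen with earlier results of these data known. Genes given with every array passed in any contrast, had an unadjusted p under 0.05 for genotype or interaction, or were among the 3 largest differences of a contrast; pathway genes passed, or were the 2 nearest to passing where none did. Isg15, Slfn2 and the receptor chains and kinases were added. Promoter sequences are from RefSeq (GRCm38.p6), matched by symbol. The alternatives were other filters, scalings, row choices and variance models, array weights and other sets of arrays. The replicate number as a fixed block or as a random effect, and leaving out arrays or replicate numbers, were also tried. The number of arrays limits the precision.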

Additional observations from a re-analysis of the deposited data

Results flagged for a closer look

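The genotype groups of Xaf1 stood apart in opposite directions at the 2 passages: all 3 Tet2-/- arrays lay above the Tet2fl/fl arrays at p2 and all 3 below them at p10. The interaction was -0.74 on the log2 scale, with an unadjusted p of 0.00827 and an adjusted p of 0.999 in limma, so a difference between the passages is not shown. Ticam1 showed the opposite order, with all Tet2-/- arrays below at p2 and above at p10, and an interaction of 0.35 (unadjusted p = 0.00349, adjusted p = 0.999). Of all genes tested, 0.154% stood apart in opposite directions at both passages.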

How the results depend on the processing

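The differences of single genes recomputed under the alternatives, those named by rule, kept their direction. The median genotype difference of the 31 genes at p10 lay between -0.22 and -0.09 with an array left out, between -0.21 and -0.09 with a replicate number left out and between -0.21 and -0.17 under the other alternatives. At p2 it changed sign, from -0.06 to 0.06, as did the passage median in Tet2-/- cells, from -0.05 to 0.06. The passage median in Tet2fl/fl cells ranged from 0.02 to 0.24 and the interaction median from -0.23 to -0.01. The replicate block treats arrays of equal number as paired. With it the number of the 31 genes that passed was 1 at p2, 1 at p10, 2 for the genotype average and 3 between passages in Tet2-/- cells, in place of 0, 0, 1 and 1. It changed no other call of these genes. With the replicate number as a random effect instead, the counts stayed at 0, 0, 1 (Slfn5) and 1 (Eif2ak2). The added calls of Zbp1, Slfn5 at p10, Ifih1 and Ifit2 thus came with the fixed block only. Without the filter the genotype average and the passage difference in Tet2-/- cells each had 0. The latter also had 0 with equal array medians and with only the arrays compared in the fit. Leaving out each array gave 0 to 1 genes for these 2 contrasts. Without replicate 1 of Tet2fl/fl at p10 the single gene called for the genotype average was Samd9l, not Slfn5. Leaving out a replicate number gave 0 in every contrast. With the block and an array left out together, an alternative added after seeing the data, the counts were 0 to 2 at p2, 0 to 1 at p10, 2 to 5 for the average and 0 to 4 between passages in Tet2-/- cells. The 5 came without replicate 1 of Tet2fl/fl at p10 (Gbp7, Samd9l, Slfn5, Slfn8 and Zbp1). Slfn5 for the average had an adjusted p of 0.0530 without the filter, and of 0.109, 0.249 and 0.211 without replicate numbers 1, 2 and 3. Eif2ak2 in Tet2-/- cells had 0.0667 with equal medians, 0.0617 without the filter and 0.0790 with only the arrays compared. Why these calls moved was not tested; each lies near the threshold with 3 arrays a group. Rows near background, such as those of the Mx genes, limit what can be seen of genes that are barely expressed.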
